A study of Mus musculus with 2 samples.

Results

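The MiT/TFE transcription factors are 4 related proteins encoded by Mitf, Tfeb, Tfec and Tfe3, and each of the 4 was measured by its own probe set, among 19938 genes so covered, in cells from healing mouse skin. The genes, and the lists used below, were chosen by name with earlier results of these data known. Where a gene had several probe sets naming it alone, the one whose mean over both arrays was highest was taken. Cells labelled B-Gal positive were compared with cells labelled B-Gal negative, with 1 array for each. Both groups came from skin scar tissue of TCF reporter mice at 1 week after wounding, and the reporter is read here as beta-galactosidase made where TCF factors, the nuclear partners of beta-catenin, are active. The sources used here do not give the promoter of the reporter, how the cells were separated, or the number of mice behind each array. The series describes microdissected and homogenised wound tissue, and how this relates to separated cells is not stated. A single array per group leaves no replicate spread, so differences carry no error and were not tested, and the number of arrays limits their precision.

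MiT/TFE proteins bind DNA as dimers through a basic helix-loop-helix and leucine zipper region, at E-box and M-box motifs in promoters. Tfeb and Tfe3 are known for switching on lysosome and autophagy genes when nutrients are scarce, and Mitf for directing melanocytes, mast cells and, with Tfe3, osteoclasts. Tfec is known in the mouse as a member used mainly by macrophages. In fed cells the kinase complex mTORC1 phosphorylates these factors at the lysosome and 14-3-3 proteins hold them in the cytoplasm, so their activity depends on location as well as on RNA. Only RNA was measured here.

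All 4 genes read higher in the B-Gal positive array, and 3 of them (Tfec, Mitf and Tfeb) did so by 2-fold or more. After adding 32 to the linear values before log2, 2 did, since Tfeb then had a difference of 0.85. Differences are on the log2 scale, B-Gal positive minus B-Gal negative. Among the 13784 expressed genes, 53.9% read higher in the B-Gal positive array at any size, 9.92% read 2-fold or more higher, and 12.7% read 2-fold or more lower. A gene was counted as expressed with at least 1 array above a floor of 5.59 on the log2 scale, the 95th percentile of 1194 olfactory and vomeronasal receptor genes. The median difference was 1.39 over the 4 members and 0.06 over all expressed genes.

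Tfec had the largest difference of the family. Its probe set 10543239 had a log2 value of 9.16 in B-Gal positive cells and of 4.93 in B-Gal negative cells, where it lay under the floor. Set against the floor, Tfec was thus higher by at least 11.9-fold. Its difference was 4.23 on deposited values, and 3.58 with any value under the floor set to the floor, which made it the 50th largest of the 13784 expressed genes so treated. It was the 1 member not above the floor in B-Gal negative cells.

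Mitf, the melanocyte, mast cell and osteoclast factor, was well above the floor in both arrays. Its probe set 10540248 read 9.73 in B-Gal positive cells and 8.04 in B-Gal negative cells, a difference of 1.69 or 3.22-fold. The other Mitf probe set, 10540265, read 5.53 in B-Gal positive cells and 4.17 in B-Gal negative cells. Both of these lay under the floor, so that probe set gave no fold. The sources used here do not say which of the Mitf transcripts, which start from several promoters, each probe set detects.

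Tfeb, the regulator of lysosome formation, read 7.33 in B-Gal positive cells and 6.24 in B-Gal negative cells on probe set 10445729. Its difference was 1.10, or 2.14-fold, close to the 2-fold line. The Tfeb value in B-Gal negative cells lay only 0.65 above the floor. Tfe3, which shares many targets with Tfeb, read 8.79 in B-Gal positive cells and 7.98 in B-Gal negative cells on probe set 10598409. Its difference of 0.81, or 1.76-fold, did not reach 2-fold. Tfe3 had a larger difference than 87.3% of expressed genes, Tfeb than 91.2% and Mitf than 95.7%.

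**Figure D1:**
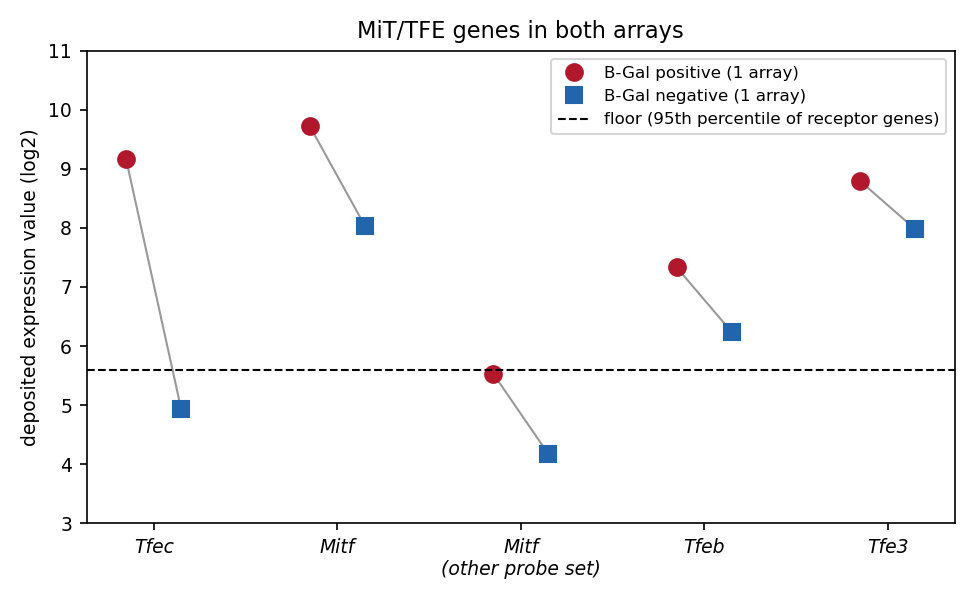
Deposited log2 expression values (vertical axis) of the 5 probe sets of the MiT/TFE genes in the B-Gal positive array (circles) and the B-Gal negative array (squares), with the floor as a dashed line. Every circle lies above its square, and Tfec runs between 9.16 and 4.93, across the floor.

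By size of difference the order was Tfec, Mitf, Tfeb and Tfe3. Tfec exceeded Mitf by at least 1.89 on the log2 scale, with Tfec in B-Gal negative cells set at the floor, and Mitf exceeded Tfeb by 0.59. Tfeb exceeded Tfe3 by 0.28, less than the standard deviation of 0.37 over the differences of the receptor genes. That standard deviation is a spread across genes within these arrays and does not replace replicates. Over those receptor genes the median difference was 0.28, and 2.68% passed 2-fold in either direction.

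**Figure D2:**
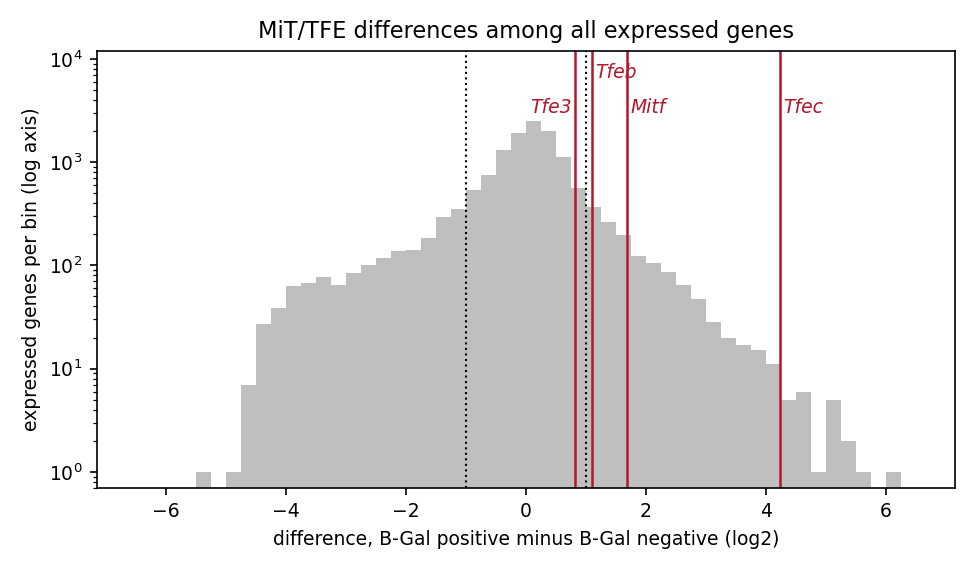
Histogram of the log2 difference, B-Gal positive minus B-Gal negative (horizontal axis), over 13784 expressed genes, with a log vertical axis of genes per bin, red lines at the MiT/TFE genes and dotted lines at 2-fold. Tfec lies at 4.23 on deposited values, in the sparse upper tail, while Tfe3 at 0.81 lies just inside the 2-fold line.

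The windows of 250 bases before the annotated starts were searched for the E-box CACGTG, which reads the same on both strands, and the M-box TCATGTG on either strand. The windows are from RefSeq, mouse build GRCm38.p6, and all 4 members had at least 1, 9 in all. Neither motif was found in these 9 windows, against 6.02% of 32851 windows of all genes for the E-box and 3.25% for the M-box. The motif AGGAAGT, of the kind bound by PU.1, was searched on either strand after the sequences were seen, and was found in 1 of the 9 windows, that of Tfec, and in 7.69% of all windows. PU.1 is the macrophage factor encoded by Spi1, which read 10.03 in B-Gal positive cells and 7.05 in B-Gal negative cells, 7.91-fold higher. The Tfec window is shown because Tfec had the largest difference, 5′ to 3′, with the motif in capitals. A match is a run of letters and not a binding site. The motif was chosen after the sequences were seen, so its presence in the Tfec window tests nothing. Any action of PU.1 on Tfec was not tested.
Tfec, chr6:16898442-16898691, minus strand: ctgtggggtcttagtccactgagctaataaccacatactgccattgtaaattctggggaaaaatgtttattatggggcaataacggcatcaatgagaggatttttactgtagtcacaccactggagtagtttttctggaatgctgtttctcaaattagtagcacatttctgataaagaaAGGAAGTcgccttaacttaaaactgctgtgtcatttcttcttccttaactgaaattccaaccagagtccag

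The genes that control these factors were taken by role, beginning with the lysosomal Rag GTPases that bring Tfeb, Tfe3 and Mitf to mTORC1. Of 22 expressed genes of the Rag, folliculin and mTORC1 list, 4 (18.2%) were 2-fold or more higher in the B-Gal positive array. In this list 0 were lower, and the median difference was 0.38. Over all expressed genes, 9.92% were higher and 12.7% lower. Fnip2, a partner of folliculin, read 10.40 in B-Gal positive cells and 7.96 in B-Gal negative cells, 5.45-fold higher. Flcn encodes folliculin, which activates RagC and RagD so that Tfeb is phosphorylated, and was 2.76-fold higher, with log2 values of 10.26 in B-Gal positive cells and 8.79 in B-Gal negative cells. Slc38a9, a lysosomal arginine sensor, was 2.21-fold higher, and Rragc, which encodes RagC, 2.13-fold higher. Rragd, which encodes RagD, read 6.21 in B-Gal positive cells and 5.28 in B-Gal negative cells, the second under the floor, so it was at least 1.54-fold higher. The other 17 expressed genes of this list had differences between -0.58 and 0.90.

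**Figure D3:**
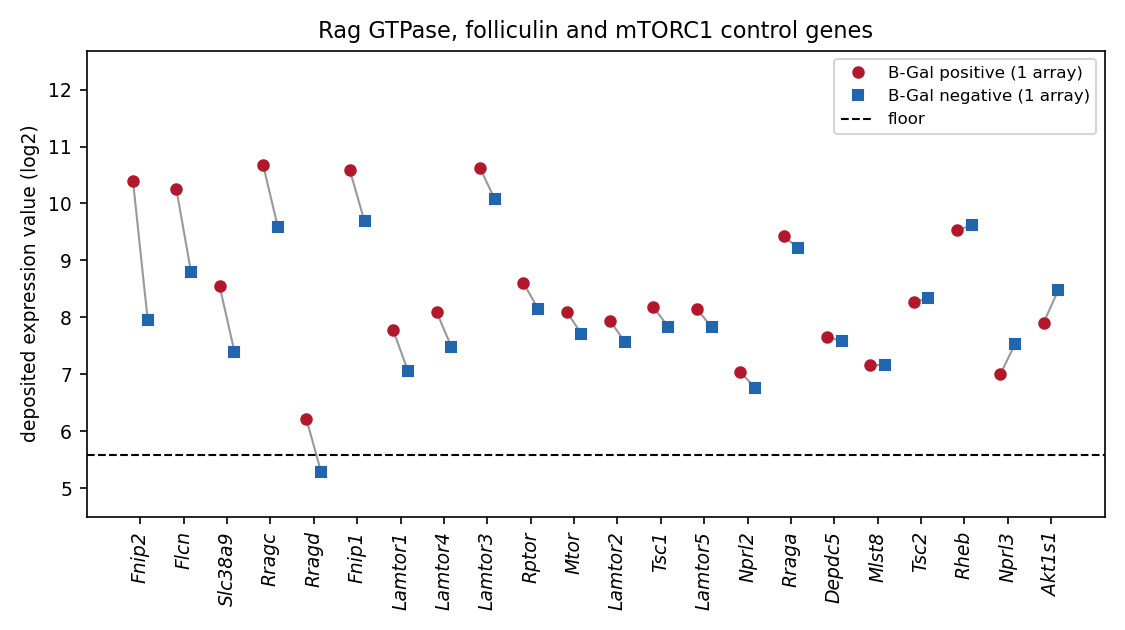
Deposited log2 expression values (vertical axis) of the 22 expressed Rag, folliculin and mTORC1 genes in the B-Gal positive array (circles) and the B-Gal negative array (squares), ordered by difference, with the floor dashed. Fnip2 has the widest gap, with 10.40 in B-Gal positive cells and 7.96 in B-Gal negative cells.

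Genes for kinases, calcineurin and binding partners of the family differed less, with a median of 0.04 over 20 expressed genes. Of these, 1 (5%) was at least 2-fold higher and 1 (5%) lower, against 9.92% and 12.7% of all expressed genes. Prkcb, a protein kinase C known to act on Tfeb in osteoclasts, was 6.85-fold higher, reading 9.32 in B-Gal positive cells and 6.55 in B-Gal negative cells. Pias3, an inhibitor of Mitf, was 2.54-fold lower, reading 6.73 in B-Gal positive cells and 8.08 in B-Gal negative cells. Mcoln1, the lysosomal calcium channel that activates calcineurin, had a difference of 0.73. The calcineurin subunit genes Ppp3ca, Ppp3r1 and Ppp3cb had differences of 0.26, 0.26 and -0.48. Stub1, a ubiquitin ligase for Tfeb, had a difference of -0.70.

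Other basic helix-loop-helix zipper factors, which bind E-boxes too, had a median difference of 0.18 over 18 genes. Of these, 1 (5.56%) was at least 2-fold higher and 1 (5.56%) lower, against 9.92% and 12.7% of all expressed genes. Myc, the growth regulator, was 5.36-fold lower, reading 8.59 in B-Gal positive cells and 11.02 in B-Gal negative cells. Mxi1, a partner of Max that opposes Myc, was 2.43-fold higher, reading 8.62 in B-Gal positive cells and 7.34 in B-Gal negative cells. Mycn and Mxd4 had differences of -0.86 and -0.75. The general E-box factors Usf1 and Usf2 had differences of 0.72 and 0.75, and the sterol regulator Srebf1 one of -0.04. Usf1 and Usf2 thus lay below Tfe3, and all 3 were under 2-fold.

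Genes taken here as targets were described in 3 lists, which hold 77 genes, 71 of them expressed. Of these 71, 29 (40.8%) were 2-fold or more higher in the B-Gal positive array and 5 were lower, with a median difference of 0.83. Over all expressed genes, 9.92% were higher and 12.7% lower. Action of the MiT/TFE factors on the listed targets was not tested. Lysosomal genes of the CLEAR network, first described in human cells, had the highest median of the 3 lists, 1.14 over 40 expressed genes. In this list 22 were at least 2-fold higher, 1 was lower, and 37 had a higher value. Atp6v0d2, a subunit of the lysosomal proton pump, read 10.31 in B-Gal positive cells and 4.93 in B-Gal negative cells and was at least 26.5-fold higher. The pump subunit genes Atp6v1a and Atp6v1c1 were 4.13-fold and 3.90-fold higher. Ctsd, which encodes the protease cathepsin D, was 4.02-fold higher, and Gla, the alpha-galactosidase gene, 3.69-fold higher. Glb1, which encodes the lysosomal beta-galactosidase that mouse cells make themselves, had a difference of 0.32. The 3 genes with lower values, named after they were seen, were Cd63, Gaa and Ctsf, with differences of -0.37, -0.78 and -1.30.

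**Figure D4:**
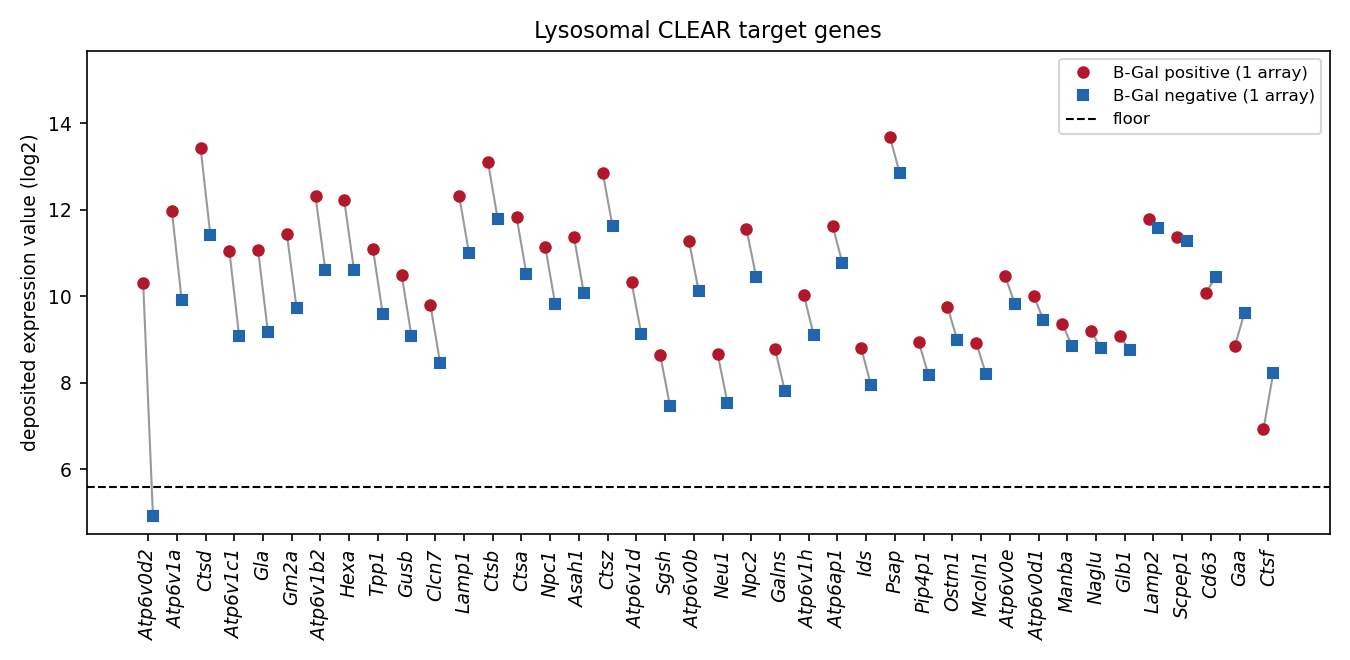
Deposited log2 expression values (vertical axis) of 40 expressed lysosomal CLEAR target genes in the B-Gal positive array (circles) and the B-Gal negative array (squares), ordered by difference, with the floor dashed. The circle lies above the square for 37 genes, and the 3 exceptions at the right are Cd63, Gaa and Ctsf.

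Autophagy targets had a median of 0.30 over 19 expressed genes. Of these, 2 (10.5%) were at least 2-fold higher and 2 (10.5%) lower, near the 9.92% and 12.7% of all expressed genes. Vps18, a tethering factor for fusion with lysosomes, was 3.01-fold higher, and Uvrag, a partner of Beclin 1, 2.20-fold higher. Wipi1, which binds phosphoinositides on forming autophagosomes, was 4.11-fold lower, reading 7.25 in B-Gal positive cells and 9.29 in B-Gal negative cells. Map1lc3a, an LC3 gene, was 2.15-fold lower. Sqstm1, the autophagy receptor p62, and Rab7, a late endosome GTPase gene, had differences of 0.60 and 0.87.

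Genes listed here as targets in macrophages and osteoclasts had a median of 0.77 over 15 expressed genes. Of these, 7 (46.7%) were at least 2-fold higher and 2 (13.3%) lower, against 9.92% and 12.7% of all expressed genes. Of the 77 target genes, 3 are in 2 of the lists, among them Atp6v0d2. Tnfrsf11a, which encodes the RANK receptor, was 5.93-fold higher, with log2 values of 8.49 in B-Gal positive cells and 5.93 in B-Gal negative cells. Gpnmb, a membrane glycoprotein gene, was 4.65-fold higher, reading 11.63 in B-Gal positive cells and 9.41 in B-Gal negative cells. Dcstamp, a gene needed for fusion of osteoclasts, was at least 3.62-fold higher, and Acp5, tartrate-resistant acid phosphatase, 2.85-fold higher. Ctsk, the cathepsin of osteoclasts, which fibroblasts also express, was 2.20-fold lower, reading 10.52 in B-Gal positive cells and 11.66 in B-Gal negative cells. Itgb3, an integrin gene of osteoclasts and vessels, was 4.97-fold lower. Csf3r, the receptor gene for G-CSF and a Tfec target in mouse macrophages, had a difference of 0.49.

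RefSeq windows were held for 55 of the 77 target genes. The E-box lay in the windows of 14 of 32 lysosomal genes (43.8%), 2 of 16 autophagy genes (12.5%) and 1 of 9 macrophage and osteoclast genes (11.1%), against 6.86% of 27025 genes with a window. Lysosomal CLEAR genes became known as a network through this kind of motif, so the share is not independent of the list. The M-box lay in the windows of 2 of 32 lysosomal (6.25%), 0 of 16 autophagy and 2 of 9 macrophage and osteoclast genes (22.2%), against 3.72% of all genes. The 14 lysosomal genes with an E-box had a median difference of 1.17, with 8 at least 2-fold higher and 1 lower. The 18 without one had a median of 0.86, with 8 higher and 0 lower. Over all expressed genes, 9.92% were higher and 12.7% lower. The windows shown are those of the 4 target genes with the largest differences that hold either motif, 5′ to 3′ in build GRCm38.p6, with E-box and M-box letters in capitals. The M-box in the Acp5 window reads on the other strand.
Atp6v1a, chr16:44139260-44139509, minus strand: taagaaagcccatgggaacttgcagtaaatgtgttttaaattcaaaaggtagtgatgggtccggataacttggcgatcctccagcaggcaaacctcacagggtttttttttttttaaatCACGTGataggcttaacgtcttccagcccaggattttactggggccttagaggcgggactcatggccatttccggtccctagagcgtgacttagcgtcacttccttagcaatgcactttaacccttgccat
Ctsd, chr7:142387828-142388077, minus strand: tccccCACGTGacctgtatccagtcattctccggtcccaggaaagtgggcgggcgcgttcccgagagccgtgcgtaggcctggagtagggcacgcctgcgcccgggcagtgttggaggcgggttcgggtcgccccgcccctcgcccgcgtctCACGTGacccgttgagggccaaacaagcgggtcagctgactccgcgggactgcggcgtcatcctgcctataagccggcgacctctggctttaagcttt
Gla, chrX:134601006-134601255, minus strand: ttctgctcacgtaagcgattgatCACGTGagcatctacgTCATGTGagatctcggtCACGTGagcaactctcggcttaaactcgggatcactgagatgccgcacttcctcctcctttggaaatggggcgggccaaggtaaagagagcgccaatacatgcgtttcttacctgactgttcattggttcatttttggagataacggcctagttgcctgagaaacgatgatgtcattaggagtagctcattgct
Acp5, chr9:22130599-22130848, minus strand: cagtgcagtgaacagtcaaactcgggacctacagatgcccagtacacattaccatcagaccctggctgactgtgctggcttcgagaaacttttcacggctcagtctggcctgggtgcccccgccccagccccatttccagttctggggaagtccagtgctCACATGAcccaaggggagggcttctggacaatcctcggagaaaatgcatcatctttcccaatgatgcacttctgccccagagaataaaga

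Ctsd held 2 E-boxes and Gla 2 E-boxes and 1 M-box, whereas Atp6v1a held 1 E-box and Acp5 1 M-box. No E-box or M-box says only that the letters are not in these 250 bases, and nothing about binding was measured.

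Markers of cell types that the wound could hold were read in the same arrays. Over all expressed genes, 9.92% were 2-fold or more higher in the B-Gal positive array and 12.7% lower. All 19 measured macrophage markers were 2-fold or more higher in the B-Gal positive array, with a median difference of 3.29 and a summed linear level of 66363 in B-Gal positive cells and 6499 in B-Gal negative cells. In these bulk arrays, more macrophages and more RNA per macrophage cannot be told apart, for these markers, the MiT/TFE genes and the listed targets. Tfec had a larger difference than 12 of the 19 markers, also with values raised to the floor, Mitf than 1, and Tfeb and Tfe3 than 0. Cd163 and Mrc1, scavenger and mannose receptor genes of macrophages, were at least 30.9-fold and 48.5-fold higher. The part of the macrophage markers in the MiT/TFE differences was not tested.

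Melanocytes are a known site of Mitf, and their pigment genes were close to or under the floor. Of 13 melanocyte markers, 5 exceeded the floor in the B-Gal positive array and 5 in the B-Gal negative array, and Tyr and Dct, pigment enzyme genes, were under it in both. The summed linear level of the list was 2330 in B-Gal positive cells and 618 in B-Gal negative cells, and without Ednrb it was 621 in B-Gal positive cells and 502 in B-Gal negative cells. Ednrb, an endothelin receptor gene that other cells use too, was the 1 marker over 2-fold, 14.7-fold higher, reading 10.74 in B-Gal positive cells and 6.86 in B-Gal negative cells. Pmel and Mlana, which encode melanosome proteins, had differences of 0.37 and 0.01, Sox10, the neural crest factor, one of 0.11, and Mc1r, the melanocortin receptor, one of 0.93.

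Mast cells are another known site of Mitf. Of 9 expressed mast cell markers, 0 were higher and 8 were at least 2-fold lower in B-Gal positive cells, against 12.7% of all expressed genes lower. The list's summed linear level was 447 in B-Gal positive cells and 3129 in B-Gal negative cells. Kit, the stem cell factor receptor and a Mitf target in mast cells, was 3.43-fold lower, reading 6.11 in B-Gal positive cells and 7.89 in B-Gal negative cells. Cpa3 and Mcpt4, mast cell protease genes, were at least 10.2-fold and 8.21-fold lower. Mitf had the higher value in the array where these markers were lower. The part of the mast cell or melanocyte markers in the Mitf difference was not tested.

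All 12 fibroblast markers were 2-fold or more lower, with a summed linear level of 15629 in B-Gal positive cells and 89949 in B-Gal negative cells. Over all expressed genes, 12.7% were 2-fold or more lower. Pdgfra, which encodes a receptor for platelet-derived growth factor, had a difference of -4.32. Of 12 endothelial markers 9 were at least 2-fold lower, with sums of 1237 in B-Gal positive cells and 3395 in B-Gal negative cells, and of 7 expressed keratinocyte markers 2 were, with sums of 560 in B-Gal positive cells and 729 in B-Gal negative cells. Tek, the angiopoietin receptor gene, was 6.74-fold lower. Krt5, a basal keratin gene, was at least 2.88-fold lower and Krt14 2.17-fold lower. Krt10 and Trp63 had differences of -0.24 and -0.21, and Krt16 was at least 1.05-fold higher. The median log2 value of the 12 keratinocyte markers was 5.57 in B-Gal positive cells and 5.69 in B-Gal negative cells, near the floor of 5.59. The part of these lists in the MiT/TFE differences was not tested.

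**Figure D5:**
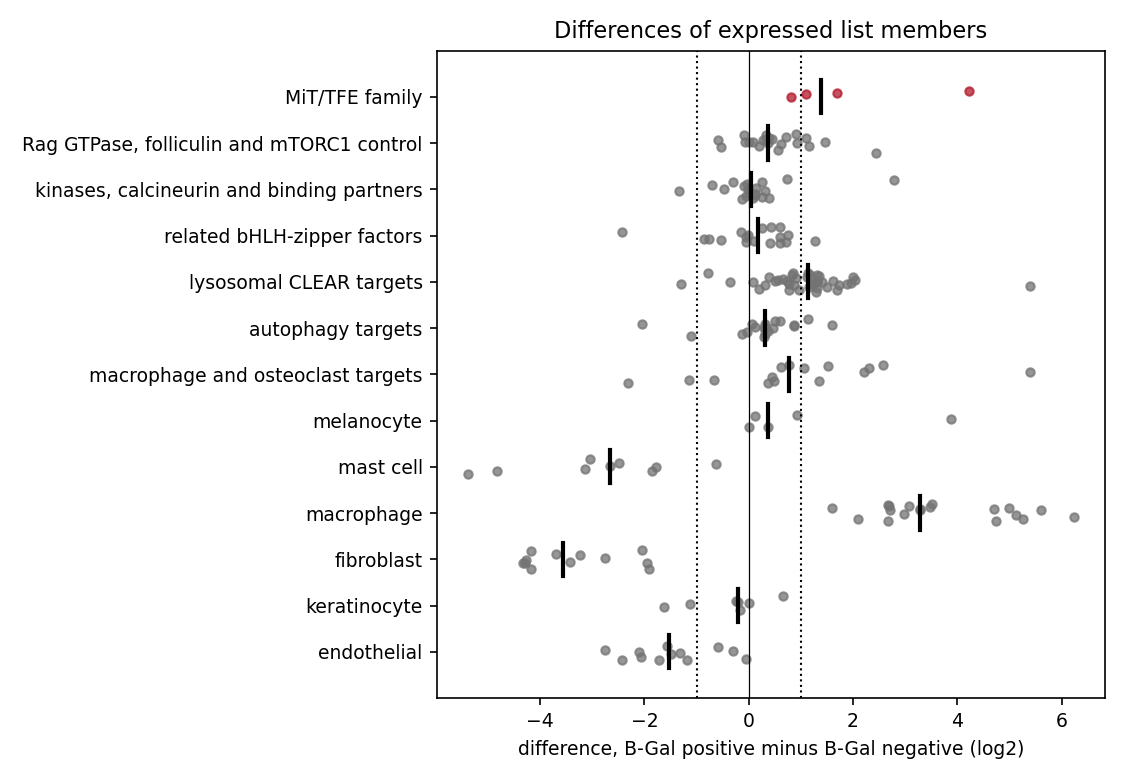
Log2 difference, B-Gal positive minus B-Gal negative (horizontal axis), of each expressed gene (points) in the MiT/TFE family and 12 other lists, with the list median as a black bar and dotted lines at 2-fold. The MiT/TFE median of 1.39 lies above the lysosomal median of 1.14 and below the macrophage median of 3.29.

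With 2 arrays, likeness between genes comes down to the size of the difference. Among 194 expressed genes of the other lists and with any value under the floor set to the floor, those nearest to Tfec were the macrophage genes Csf1r (3.52), Fcgr3 (3.47) and Cd68 (3.29). On deposited values, those nearest to Tfec were Ednrb (3.88) of the melanocyte list and the macrophage genes C1qb (4.70) and Adgre1 (4.75). Nearest to Mitf in both settings were the lysosomal genes Atp6v1b2 (1.70), Gm2a (1.72) and Hexa (1.61). Nearest to Tfeb were Rragc (1.09), Npc2 (1.11) and Neu1 (1.13), and nearest to Tfe3 were Psap (0.83), Ids (0.85) and Pip4p1 (0.77). Only listed genes were compared, so the neighbours depend on the lists chosen. Many genes share a difference of these sizes. Of the 40 lysosomal genes, 27 had a larger difference than Tfe3, 22 than Tfeb, 7 than Mitf and 1 than Tfec.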

How the data were processed

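Each group's total RNA was run on a single Affymetrix Mouse Gene 1.0 ST array, per the labels and the series' design text. The authors deposited 1 value per probe set and array, read here as log2 expression values because they ran from 1.16 to 14.8. Folds depend on that reading. Partek is the software named, per the submitters' processing notes. Its version, the summarization, the normalization and the log base are not stated in those sources. Array medians were 6.16 for B-Gal positive and 6.18 for B-Gal negative cells, and 614 of 28853 probe sets (2.13%) had the same value, to the digits deposited, in both arrays. These include Zkscan3, a repressor of lysosome genes among the listed genes, named after its values were seen.

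Probe sets were named by the platform annotation, with 21789 naming 1 gene, 1621 several and 5443 none. Symbols were checked by gene ID against RefSeq genes of GRCm38.p6, which matched 21698 of them. Genes were counted by a difference of at least 2-fold on deposited values, also where 1 array lay under the floor. In printed folds the floor took the place of a value under it, and the fold is then a lower bound. With values raised to the floor, 1316 expressed genes were higher and 1600 lower, against 1368 and 1753 on deposited values. No p-value was computed, since 1 array per group leaves no spread. The named genes were the 4 members, in every other list up to 5 expressed genes whose absolute difference was largest, 22 fixed genes, and the 3 list genes nearest to each member. Others are marked in the text. The members and lists were chosen with earlier results of these data known. Analysis used Python 3.11.15, numpy 2.4.6, pandas 2.3.3 and statsmodels 0.14.6, and alternatives covered scaling, low values, probe set choice and threshold.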

Additional observations from a re-analysis of the deposited data

How the results depend on the processing

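The 4 members kept higher values in B-Gal positive cells under median centring, quantile normalization, a loess fit of difference on mean (span 0.4, 3 iterations), an offset of 32 on the linear scale, values raised to the floor, and the mean over probe sets. Mitf ranged from 1.52 to 1.71 and Tfe3 from 0.74 to 0.84 over these settings. The offset and the raised values could not reverse a direction, and the mean over probe sets could alter only Mitf. Median centring shifted all genes alike, with Mitf at 1.71 against 1.69. Differences were called moved when they shifted by over 0.37, the standard deviation of the receptor genes, or crossed 2-fold. With the offset, Tfeb was 0.85, no longer 2-fold, and Tfec 3.28. Tfec was 3.58 with values raised to the floor. The loess fit set the median difference of all genes to -0.02, against 0.12 on deposited values, and left 3 members at least 2-fold higher.

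At a 4-fold threshold, 415 of the 13784 expressed genes (3.01%) were higher and 788 lower. Higher genes then numbered 1 of 4 in the family (Tfec), 1 of 22 in the Rag, folliculin and mTORC1 list, and 0 of 18 related zipper factors. Among targets they numbered 3 of 40 lysosomal, 0 of 19 autophagy, and 4 of 15 macrophage and osteoclast genes. Lower genes then numbered 1 among autophagy targets, 1 among macrophage and osteoclast targets, and 0 in the lysosomal and the kinase and partner lists. At 1.5-fold, 2585 of the 13784 expressed genes (18.8%) were higher and 2765 lower. Higher genes then numbered 8 of 22 in the Rag, folliculin and mTORC1 list and 5 of 19 autophagy targets. They numbered 2 of 20 in the kinase and partner list and 6 of 18 related zipper factors. Lower genes then numbered 2 in the kinase and partner list, 2 among lysosomal targets and 3 among related zipper factors. The offset left 1 autophagy target at least 2-fold lower. These changes follow from the thresholds and the offset themselves. The other 143 values for the family, control and target lists, including those without a filter and under a floor taken at the 99th receptor percentile, stayed within 1.5 times the count or within 0.37. Some of them could not change, such as Tfeb and Tfe3 with the mean over probe sets or with values raised to the floor. No paired analysis was possible because each group had 1 array. Levels near the floor limit what can be said of Tfec in B-Gal negative cells and of the second Mitf probe set. The same holds for Tfeb in B-Gal negative cells, where its 6.24 lay under the 99th percentile floor of 6.27.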
